A study of Arabidopsis thaliana with 16 samples.

Results

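The cysteine-rich receptor-like kinase (CRK) genes of Arabidopsis thaliana were taken as the genes whose symbol is CRK followed by a number and whose description contains the term cysteine-rich. This rule used no measured value and gave 38 of the 32833 genes in the count table. Of these 38 genes, 37 had enough counts to be tested, and CRK33 did not, with 2 counts in 1 library and 0 in the others. Another 2 genes with a CRK symbol, AT2G41140 and AT2G46700, are described as CDPK-related kinases and were left out. The RNA came from whole seedlings of 9 days, grown on medium with 1% sucrose and given no treatment. There were 16 libraries, 2 for each of 8 genotypes: wild type (WT), the single mutants nup50c, nup82 and nup136, the double mutants nup50c nup82, nup50c nup136 and nup82 nup136, and nup50c nup82 nup136, called the triple mutant below. The alleles, and whether a genotype was 1 line or the 2 libraries came from separate cultures, are not given in the sources used here, so a p-value here covers just the variation among these libraries. The sequencing was strand-specific, with 37923632 to 46194172 gene counts per library.

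CRKs are membrane proteins with cysteine-rich extracellular domains, a membrane-spanning helix and an intracellular serine/threonine kinase, and they form one of the larger families of plant receptor kinases. Many are transcriptionally responsive to pathogens, salicylic acid and reactive oxygen species, and several members act in pattern-triggered immunity, in hypersensitive cell death or in the regulation of the NADPH oxidase RBOHD. NUP50C, NUP82 and NUP136, the 3 genes mutated, encode nuclear basket components of the pore, on its nucleoplasmic face.

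The transcripts of the mutated genes followed the labels for NUP50C, at 21.2% to 33.5% of WT in its 4 mutant genotypes, and for NUP136, at 40.4% to 59.8% of WT. NUP82 stood at 66.9% of WT in the libraries labelled nup82 and at 85.3% to 115% in the 3 multiple mutants that carry the label. What is said below of genotypes with nup82 therefore rests on the labels, and "the triple mutant" stands for the libraries labelled nup50c nup82 nup136. Markers of both root and leaf were present in every library, and no marker of either list was at 0. Since whole seedlings were sampled, fewer cells of a type and less RNA per cell cannot be told apart.

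The 38 genes lie mostly in tandem arrays on chromosome 4 (TAIR10). The longest array holds 18 members, CRK5 to CRK24, within 74.2 kb at positions 12117491 to 12191704. A second array holds 5 members, CRK36 to CRK40, at 2231717 to 2292965, and another holds 5, CRK30 to CRK34, at 6963521 to 6989793. CRK28 and CRK29 are neighbours on chromosome 4, and CRK2 and CRK3 are neighbours on chromosome 1. The other 6 members stand alone: CRK4 on chromosome 3, CRK25, CRK26, CRK27 and CRK41 on chromosome 4, and CRK42 on chromosome 5. Gene models are close together in places. CRK16 overlaps EMB1290, also described as a cysteine-rich receptor-like kinase, on the same strand over 1190 bases, and CRK28 overlaps CRK29 on the same strand over 470 bases, so reads there cannot be given to 1 gene with certainty. CRK10 and CRK11 overlap on opposite strands by 32 bases, and CRK25 overlaps the kinesin gene ATK5 on the opposite strand by 492 bases. The strand setting of the counting is not given in the sources used here.

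Paralogs also share sequence. All 50-base stretches within the exons of each member were looked up in the genome, and 14 members had none that occurred more than once. The share of repeated stretches exceeded 10% in 4 members, CRK6 (22%), CRK8 (16.5%), CRK22 (16.2%) and CRK13 (15.4%). CRK13 and CRK22 had 365 such stretches in common. Of the stretches of CRK6, 452 also occurred in CRK8, and of those of CRK8, 559 also occurred in CRK6. The treatment of reads with several alignments is not given in the sources used here, so the values of these 4 members are less certain than those of the others.

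In WT seedlings the members covered a wide range of levels per gene length. As FPKM (fragments scaled by gene length and library size), CRK19 was at 20.3 ± 0.739 (SD, n = 2), CRK10 at 19.2 ± 0.805, CRK40 at 15.0 ± 0.0888 and CRK2 at 15.0 ± 2.61. CRK2 is known to phosphorylate RBOHD, and CRK10 was first described as RLK4. Within this order CRK19 and CRK10, and CRK40 and CRK2, do not differ beyond their spread. CRK3, CRK18 and CRK29 followed between 10.7 and 11.6 FPKM. In all, 11 members had a WT mean of at least 5 FPKM, 13 lay between 0.5 and 5 FPKM, and 14 lay under 0.5 FPKM. CRK23, CRK33 and CRK38 had 0 counts in both WT libraries, which allows up to 0.0678 and 0.0798 CPM (counts scaled to the size of the library). Summed over the members, WT held 400.5 and 438.2 CPM, and the triple mutant 443.9 and 459.4 CPM. The libraries of nup50c, nup82 and nup50c nup82 held 427.3 to 456.8 CPM. Those of the other genotypes with nup136 held 340.5 to 394.0 CPM.

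In the triple mutant the CRK genes moved in both directions and by large amounts. At an adjusted p under 0.05, 17 of 37 members were higher than in WT (45.9%) and 9 were lower (24.3%), 70.3% in all. Over all 22427 genes tested the share was 47.6%, with 23.3% higher and 24.3% lower. The fallen share of the members was thus the same as that of all genes. Members near 0 in WT had little room to be called lower, however. The match is therefore not read as a result about the family. The risen share was larger, but 9 of the 17 risers had a WT mean under 1 CPM. Those near 0 in WT entered the test only through other genotypes, so the larger share is not read as a result about the family. The median log2 fold change over the 37 members was 0.48, or 0.13 with the 3 members that had a group at 0 counts set at their bounds, against -3.82e-05 over all genes tested.

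**Figure D1:**
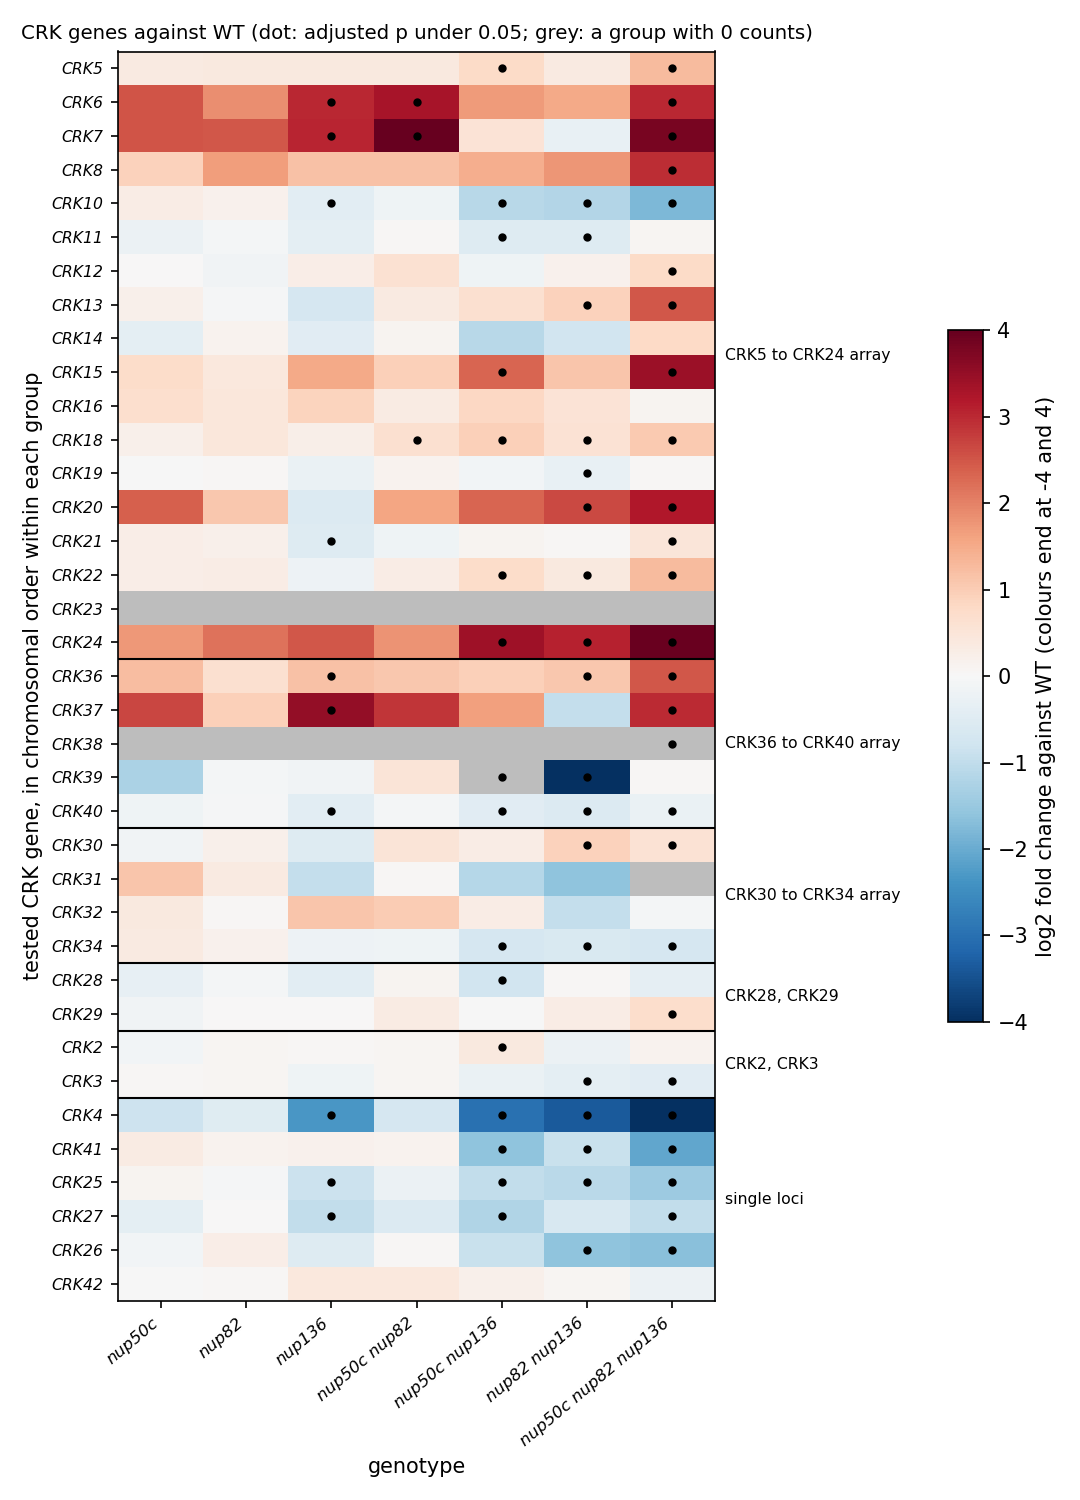
Heat map of the log2 fold change against WT (colour, red higher and blue lower, ending at -4 and 4) for the 37 tested CRK genes (rows, in chromosomal order within each locus group) in 7 mutant genotypes (columns). Dots mark an adjusted p under 0.05 and grey cells a comparison in which 1 group had 0 counts. The triple mutant column holds 26 dots, and the nup50c and nup82 columns hold none.

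The calls are given here by locus, where 23.3% of all genes tested were higher and 24.3% lower. In the CRK5 to CRK24 array 12 of 18 members rose and 1 fell, CRK10, with a median log2 fold change of 1.28. Of these 12, CRK6, CRK7, CRK8, CRK15, CRK20 and CRK24 had WT means of only 0.0678 to 0.193 CPM, and the members at single loci had at least 1.52 CPM, so the counts of the loci are not compared. In the CRK36 to CRK40 array 3 of 5 rose (CRK36, CRK37 and CRK38) and CRK40 fell. Of the 4 tested members of the CRK30 to CRK34 array, CRK30 rose and CRK34 fell. CRK29 rose and CRK3 fell in the 2 pairs of neighbours. None of the 6 members at single loci rose and 5 fell, CRK4, CRK25, CRK26, CRK27 and CRK41, with a median of -1.56. CRK42 was at -0.24 and did not pass the test.

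The fallen members were expressed in WT, and many risen members were near the limit of detection there. All 9 that fell had a WT mean of at least 1 CPM, with a median of 8.76 CPM. A gene near 0 in WT has little room to be called lower, so this level was largely fixed in advance. CRK31, for example, was at 0.152 CPM in WT and at 0 counts in the triple mutant, and was not called. Of the 17 that rose, 9 had a WT mean under 1 CPM, and the median was 0.823 CPM. A gene near 0 in WT passes the filter on low counts only through a genotype in which it is higher, so the number of such risers, in the family or in a locus, carries no weight of its own.

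Among the fallen members, CRK10 had the smallest adjusted p. It stood at 47.8 and 50.6 CPM in the WT libraries, 56.4 and 64.6 in nup50c, 54.8 and 55.5 in nup82, 40.2 and 32.7 in nup136, 42.4 and 44.2 in nup50c nup82, 22.6 and 22.7 in nup50c nup136, 19.2 and 24.4 in nup82 nup136, with 15.0 and 13.5 in the triple mutant. Every library with nup136 lay below every library without it, and the triple mutant lay below all others. The log2 fold change in the triple mutant was -1.79 ± 0.11 (SE), with an adjusted p of 2.48e-12.

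CRK4, which associates with the flagellin receptor FLS2 and raises pattern-triggered responses when overexpressed, fell furthest among members with counts in both groups. Its libraries held 5.50 and 7.68 CPM in WT, 5.27 and 2.1 in nup50c, 4.90 and 4.48 in nup82, 3.98 and 4.35 in nup50c nup82, and 0.875 and 1.74 in nup136. The double mutants held 0.834 and 0.819 CPM (nup50c nup136) and 0.955 and 0.325 in nup82 nup136, with 0.336 and 0.413 in the triple mutant. Libraries with nup136 were again all below those without it, although nup50c replicate 2 was close to the highest of them. The triple mutant was 17.4-fold below WT (log2 fold change -4.12 ± 0.49, adjusted p = 4.92e-07).

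CRK41 followed another pattern. It held 8.62 and 8.91 CPM in WT and 8.98 and 10.7 CPM in nup136, which overlapped with nup50c, nup82 and nup50c nup82 (8.02 to 11.5 CPM). It held 2.94 and 2.85 CPM in nup50c nup136, 3.87 and 5.51 CPM in nup82 nup136, and 1.83 and 2.30 CPM in the triple mutant. CRK41 was thus low where nup136 was combined with another mutation, and the nup136 single mutant did not differ from WT beyond the spread (log2 fold change 0.16 ± 0.19, adjusted p = 0.644). The change in the triple mutant was -2.09 ± 0.21 (adjusted p = 1.18e-08).

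CRK25 held 11.8 and 12.2 CPM in WT, 6.01 to 7.18 CPM in nup136, 5.42 to 6.66 CPM in nup50c nup136, 5.23 to 6.04 CPM in nup82 nup136, and 4.3 and 4.5 CPM in the triple mutant. The libraries without nup136 did not go below 10.1 CPM, so those with and without nup136 did not overlap. The log2 fold change in the triple mutant was -1.44 ± 0.16 (adjusted p = 5.95e-08). The remaining members that fell there were CRK26 (-1.69 ± 0.54), CRK27 (-0.98 ± 0.26), CRK34 (-0.66 ± 0.21), CRK3 (-0.45 ± 0.11) and CRK40 (-0.28 ± 0.10).

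**Figure D2:**
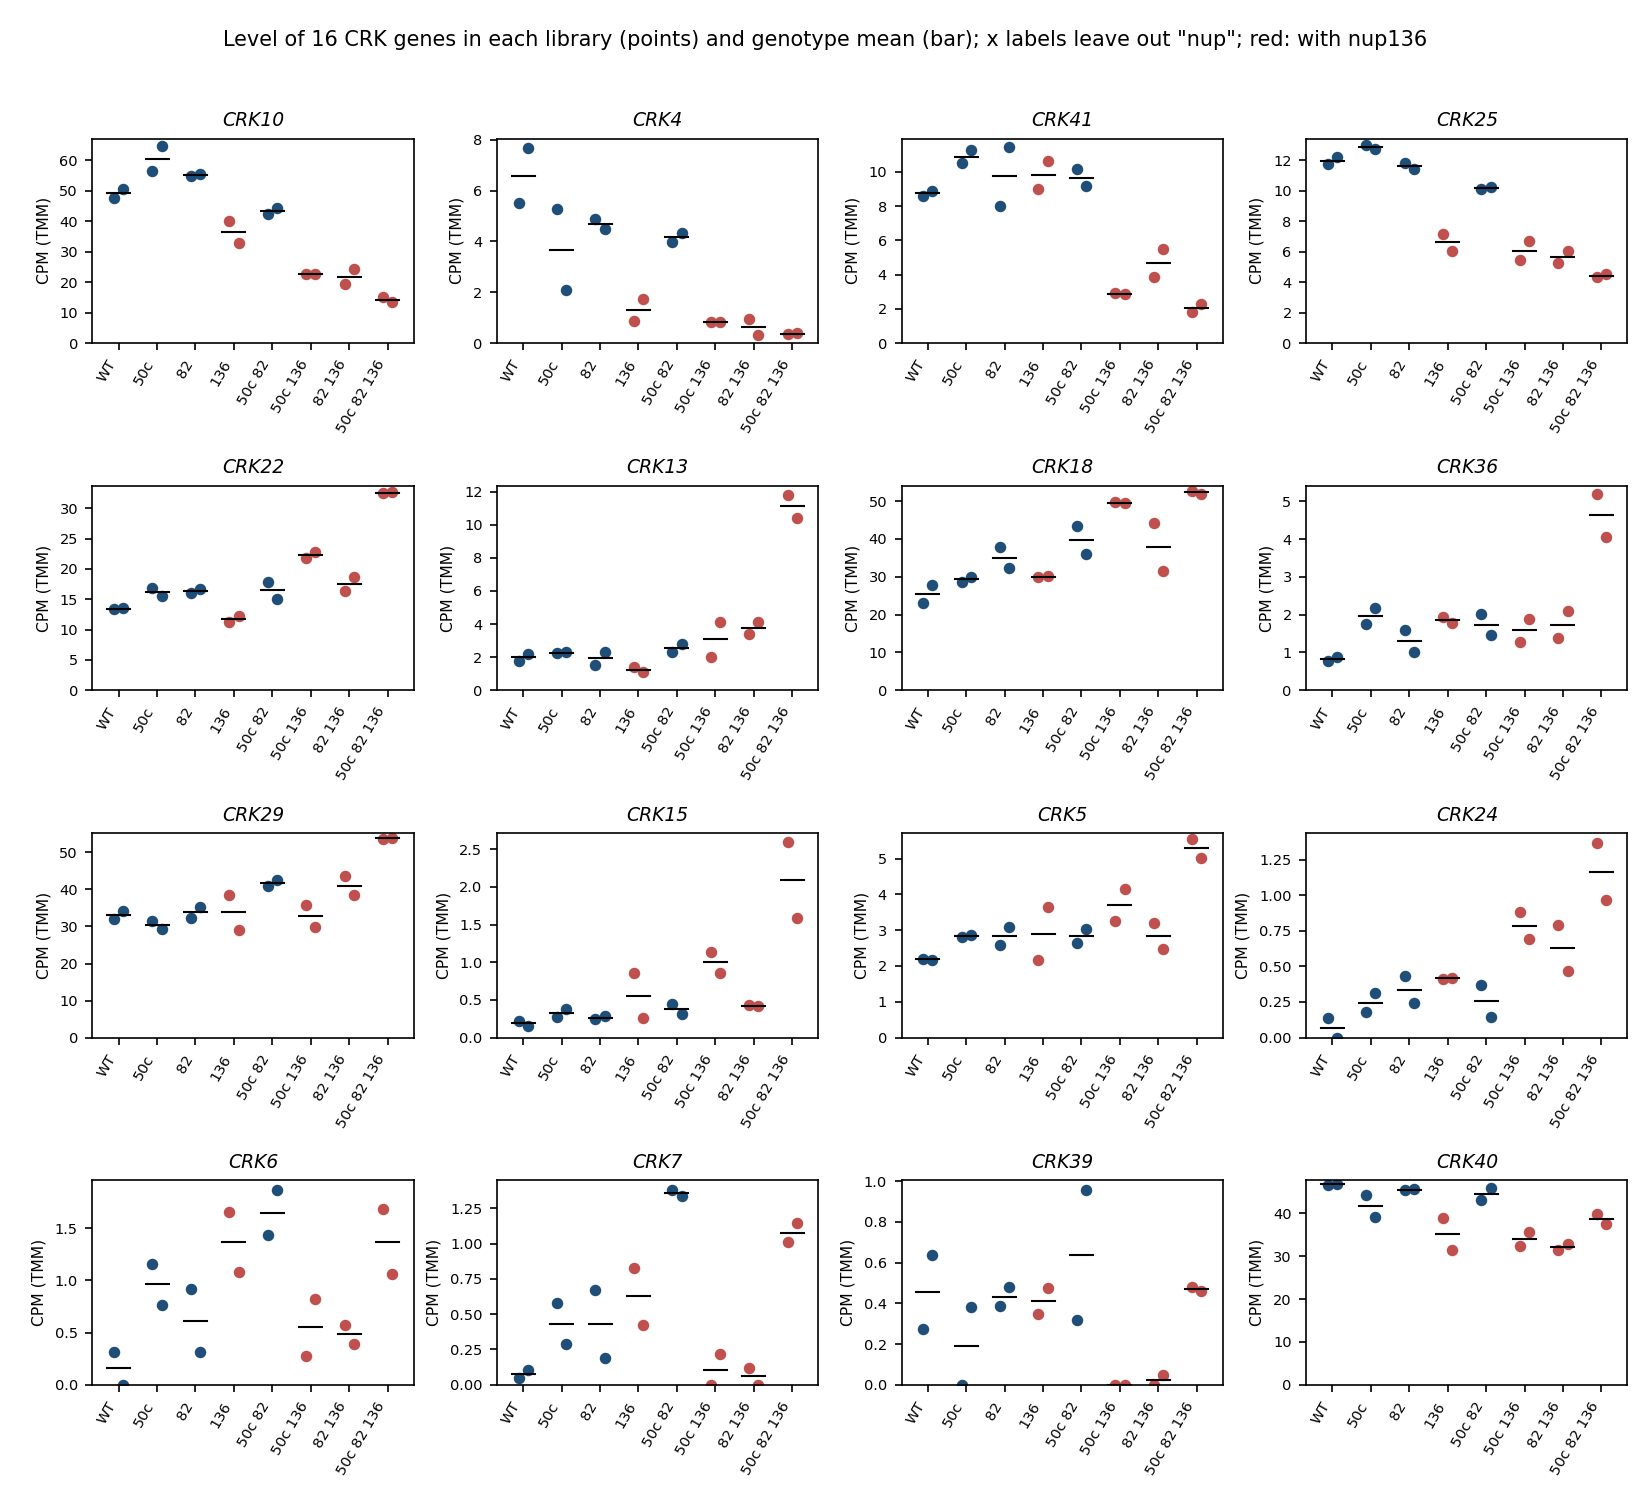
Level of 16 CRK genes as CPM scaled by the trimmed mean of M values (TMM; vertical axes, linear and starting at 0), 1 point per library and a bar at each genotype mean, for 8 genotypes on the horizontal axes. Red points are libraries with nup136. CRK10, CRK4 and CRK25 were lower in all red libraries, and CRK22, CRK13 and CRK36 were highest in the triple mutant.

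Of the risen members, CRK22 had the smallest adjusted p. Its libraries held 13.4 and 13.5 CPM in WT and 32.5 and 32.6 CPM in the triple mutant, where the log2 fold change was 1.28 ± 0.12 (adjusted p = 1.61e-09). The double mutants with nup136 lay between, at 21.8 and 22.8 CPM in nup50c nup136 and 16.4 and 18.7 CPM in nup82 nup136. The nup136 single mutant was at 11.2 and 12.3 CPM, below both WT libraries, without passing the test. The other genotypes without nup136 held 15.1 to 17.8 CPM.

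CRK13, known for raising resistance to bacteria and causing cell death when overexpressed, was at 1.79 and 2.18 CPM in WT. The nup136 libraries held 1.40 and 1.08 CPM, those of nup50c, nup82 and nup50c nup82 held 1.54 to 2.77 CPM, and the double mutants held 2.04 and 4.14 CPM (nup50c nup136) and 3.39 and 4.14 CPM (nup82 nup136). The triple mutant held 11.8 and 10.4 CPM. The triple mutant libraries exceeded all other libraries, and the rise over WT was 5.61-fold (log2 fold change 2.49 ± 0.29, adjusted p = 1.26e-07). CRK22 and CRK13 share 365 of the 50-base exon stretches described above.

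CRK36, which acts in pattern-triggered immunity and, with the kinase ARCK1, in abscisic acid signalling, was at 0.769 and 0.877 CPM in WT and at 5.19 and 4.06 CPM in the triple mutant. The other 6 genotypes lay between, from 1.01 to 2.17 CPM, so WT held the lowest and the triple mutant the highest values. The log2 fold change in the triple mutant was 2.49 ± 0.36 (adjusted p = 3e-06).

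CRK5, whose overexpression raises resistance to bacteria and whose loss speeds senescence, was at 2.19 and 2.18 CPM in WT, 2.81 and 2.86 in nup50c, 2.59 and 3.09 in nup82, 2.16 and 3.64 in nup136, 2.65 and 3.04 in nup50c nup82, 3.24 and 4.14 in nup50c nup136, 3.20 and 2.46 in nup82 nup136, with 5.55 and 5.03 in the triple mutant. Here too the triple mutant exceeded every other library, and nup136 overlapped with WT. The log2 fold change in the triple mutant was 1.27 ± 0.27 (adjusted p = 3.49e-04).

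2 members of higher level rose by less. CRK18 went from 23.0 and 27.9 CPM in WT to 52.6 and 52.0 CPM in the triple mutant (log2 fold change 1.04 ± 0.13, adjusted p = 1.35e-06). CRK29, a close relative of CRK28, which associates with the co-receptor BAK1, went from 32.0 and 34.3 CPM to 53.6 and 54.0 CPM (0.70 ± 0.11, adjusted p = 1.16e-05). The groups did not overlap in either gene, and CRK18 was nearly as high in nup50c nup136, at 49.7 and 49.4 CPM. The libraries of the other genotypes held 28.6 to 44.3 CPM of CRK18, and those of all genotypes other than WT and the triple mutant held 29.2 to 43.55 CPM of CRK29.

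CRK15 and CRK24 were scarce in WT. CRK15 was at 0.226 and 0.160 CPM in WT and at 2.59 and 1.58 CPM in the triple mutant (log2 fold change 3.41 ± 0.66, adjusted p = 1.34e-04). CRK24 was at 0.136 and 0 CPM in WT and at 1.37 and 0.964 CPM in the triple mutant (3.97 ± 0.95, adjusted p = 5.31e-04). The nup136 double mutants held intermediate levels of CRK24, from 0.465 to 0.881 CPM, and nup136, nup50c, nup82 and nup50c nup82 held 0.143 to 0.432 CPM. For CRK15 the genotypes other than WT and the triple mutant held 0.240 to 1.135 CPM. The other risers of the long array were CRK6, CRK7, CRK8 and CRK20, at log2 fold changes of 2.96 to 3.81 from WT means of 0.0718 to 0.158 CPM, and CRK12 (0.75 ± 0.25) and CRK21 (0.48 ± 0.11). Outside it, CRK30 rose by 0.59 ± 0.17 and CRK37 by 2.98 ± 1.34, and CRK38 was at least 2.55-fold higher than in WT, where it had 0 counts (floor of 3 counts per library).

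Calls in the triple mutant were not all equally firm. Of the 26, 18 kept an adjusted p under 0.05 with any 1 library left out. The other 8 lost it without at least 1 of the WT or triple mutant libraries, with adjusted p up to 0.261. They were CRK12, CRK26, CRK27, CRK30, CRK34, CRK37, CRK38 and CRK40, none of which is among the 12 members with the smallest adjusted p.

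**Figure D3:**
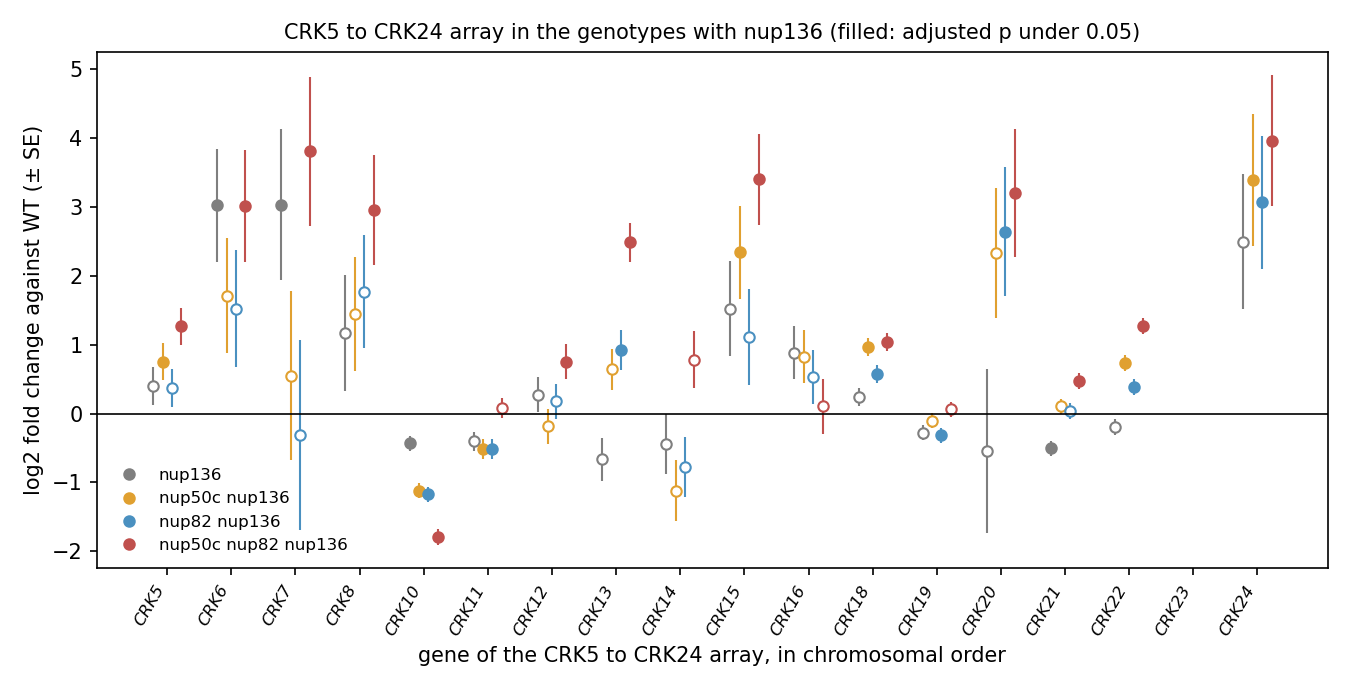
Log2 fold change against WT with its SE (vertical axis) for the genes of the CRK5 to CRK24 array in chromosomal order (horizontal axis) in 4 genotypes with nup136. Filled points have an adjusted p under 0.05, and CRK23, with 0 counts in WT, is left blank. In the triple mutant 12 of 18 members were higher, while CRK10 was lower in all 4 genotypes.

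Promoter sequence upstream of the transcription start is shown for 4 members that the results turn on, 2 risers (CRK5 and CRK36) and 2 that fell (CRK4 and CRK10), since many CRK promoters are known to carry W-boxes, the binding motif of WRKY transcription factors. The sequences are the 250 bases before the annotated start in RefSeq's TAIR10.1 genome, whose gene positions equal those of the count table for all 38 members. They read 5′ to 3′ on the strand of the gene, and capitals mark a W-box (TTGACC or TTGACT on either strand, so that GGTCAA and AGTCAA also count). The region of CRK5 is chr4:12120221-12120470 on the minus strand, that of CRK36 is chr4:2234690-2234939 on the minus strand, that of CRK4 is chr3:16866262-16866511 on the minus strand, and that of CRK10 is chr4:12137745-12137994 on the plus strand.
CRK5: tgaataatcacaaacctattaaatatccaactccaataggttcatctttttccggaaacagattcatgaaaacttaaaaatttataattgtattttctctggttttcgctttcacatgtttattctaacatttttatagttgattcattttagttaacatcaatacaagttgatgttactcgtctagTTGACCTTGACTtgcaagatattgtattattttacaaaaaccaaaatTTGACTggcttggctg
CRK36: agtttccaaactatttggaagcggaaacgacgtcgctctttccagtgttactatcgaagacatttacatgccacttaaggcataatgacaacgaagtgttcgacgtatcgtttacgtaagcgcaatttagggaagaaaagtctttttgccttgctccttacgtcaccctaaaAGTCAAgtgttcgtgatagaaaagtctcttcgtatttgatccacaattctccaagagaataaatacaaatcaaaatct
CRK4: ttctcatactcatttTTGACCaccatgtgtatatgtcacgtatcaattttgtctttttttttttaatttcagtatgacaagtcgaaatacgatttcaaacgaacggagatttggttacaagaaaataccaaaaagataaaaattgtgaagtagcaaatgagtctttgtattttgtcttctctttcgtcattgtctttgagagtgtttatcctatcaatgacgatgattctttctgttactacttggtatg
CRK10: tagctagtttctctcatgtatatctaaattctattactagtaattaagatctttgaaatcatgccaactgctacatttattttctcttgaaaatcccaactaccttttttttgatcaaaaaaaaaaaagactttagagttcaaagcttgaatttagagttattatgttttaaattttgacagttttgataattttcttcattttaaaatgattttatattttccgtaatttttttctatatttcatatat

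CRK5 held 3 W-boxes in this window, 2 of them adjacent, CRK36 and CRK4 held 1 each, and CRK10 held none. Not all risers held one: the windows of CRK22 and CRK13, which are not shown, held none. Over the family, 24 of 38 members (63.2%) had at least 1 W-box within 250 bases, against 27.8% of the promoters of all 32541 genes examined. The share did not follow the direction of change: it was 64.7% among the 17 members higher in the triple mutant, 55.6% among the 9 lower, and 72.7% among the 11 not called. These are matches of letters, and many members arose by tandem duplication, so their promoters are not independent. Windows of 7 members overlap a neighbouring gene, among them CRK16 and CRK28, whose windows lie wholly within one.

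The single mutants nup50c and nup82 had no called member in edgeR's quasi-likelihood test. The share over all genes tested was 1.73% in nup50c (0.923% higher and 0.812% lower) and 1.39% in nup82 (0.856% higher and 0.535% lower). At an unadjusted p under 0.05 there were 10 members in nup50c and 6 in nup82, and the Wald test of DESeq2 called 2 and 1. The shares of all genes under these settings are not given here, so these counts are not read as a result about the family. Members such as CRK7 and CRK37 had 6 and 4 counts in the WT libraries together and entered the test through other genotypes. The median log2 fold change of the members was 0.26 in nup50c (0.20 with bounds) and 0.18 in nup82. In nup50c, 1 member passed without WT replicate 1.

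In nup50c nup82, 3 members rose and none fell (8.11%, against 0.905% of all genes tested, 0.562% higher and 0.343% lower), CRK6, CRK7 and CRK18. CRK6 and CRK7 had 14 and 6 counts in the WT libraries together. They entered the test through other genotypes and had little room to be called lower, so the larger share carries no weight of its own. CRK6 and CRK7, which are known to take part in tolerance to extracellular reactive oxygen species, are neighbours in the long array. CRK7 was at 0.0452 and 0.106 CPM in WT, 0.580 and 0.286 in nup50c, 0.673 and 0.192 in nup82, 0.829 and 0.422 in nup136, 1.38 and 1.34 in nup50c nup82, 0 and 0.216 in nup50c nup136, 0.119 and 0 in nup82 nup136, with 1.01 and 1.15 in the triple mutant. Both double mutants with nup136 thus overlapped with WT, while the triple mutant and nup50c nup82 stood above all others.

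CRK6 was at 0.317 and 0 CPM in WT, 1.16 and 0.762 in nup50c, 0.913 and 0.311 in nup82, 1.66 and 1.08 in nup136, 1.43 and 1.86 in nup50c nup82, 0.278 and 0.819 in nup50c nup136, 0.573 and 0.395 in nup82 nup136, with 1.68 and 1.06 in the triple mutant. The highest means were those of nup50c nup82, the triple mutant and nup136, and nup50c replicate 1 lay among their values. The log2 fold changes in nup50c nup82 were 3.29 ± 0.81 for CRK6, 4.14 ± 1.08 for CRK7 and 0.64 ± 0.13 for CRK18 (adjusted p = 0.0445, 0.0437 and 0.0211). All 3 calls were lost when single libraries were left out: no member passed without nup50c nup82 replicate 1, and 1 member passed without any one of the other 3 libraries of this comparison.

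In nup136, 4 members rose and 6 fell (27%, against 14.4% of all genes tested, 6.56% higher and 7.83% lower). CRK6, CRK7, CRK36 and CRK37 rose, and CRK4, CRK10, CRK21, CRK25, CRK27 and CRK40 fell. Of the risers, CRK6, CRK7 and CRK37 were near 0 counts in WT and entered the test through other genotypes. The largest falls were those of CRK4 (-2.34 ± 0.41, adjusted p = 5.47e-04), CRK27 (-0.99 ± 0.26, adjusted p = 0.0096) and CRK25 (-0.86 ± 0.16, adjusted p = 4.29e-04). The median of the members was -0.14. Only CRK4 and CRK25 kept their call with any 1 library left out, and the count of 10 dropped to 3 without WT replicate 2 and to 4 without nup136 replicate 2.

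In nup50c nup136, 6 members rose and 10 fell (43.2%, against 24.7% of all genes tested, 11.7% higher and 13.1% lower), and in nup82 nup136, 7 rose and 11 fell (48.6%, against 19.3%, 7.95% higher and 11.3% lower). In both, CRK18, CRK22 and CRK24 rose, and CRK4, CRK10, CRK11, CRK25, CRK34, CRK39, CRK40 and CRK41 fell. Both comparisons use the same WT libraries. CRK2, CRK5 and CRK15 also rose in nup50c nup136, where CRK27 and CRK28 fell. CRK13, CRK20, CRK30 and CRK36 also rose in nup82 nup136, where CRK3, CRK19 and CRK26 fell. The risers CRK15, CRK20 and CRK24 had only 16, 6 and 6 counts in the WT libraries together. The median of the members was 0.10 and 0.04, and 0.00 in both with bounds. With any 1 library left out, 9 of the 16 calls in nup50c nup136 and 6 of the 18 in nup82 nup136 were kept. Without WT replicate 2 the count of 18 in nup82 nup136 dropped to 7, and it was 11 without nup82 nup136 replicate 1 and 10 without its replicate 2.

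CRK39 was low in both double mutants with nup136 and not in the triple mutant. It was at 0.271 and 0.638 CPM in WT and at 0.345 and 0.474 CPM in nup136. The double mutants held 0 and 0 CPM (nup50c nup136) and 0 and 0.0465 in nup82 nup136, with 0.480 and 0.459 in the triple mutant. Both doubles lay below both WT libraries, and the triple mutant lay within the WT range. The fall was at least 6.78-fold in nup50c nup136 (floor of 3 counts per library, adjusted p = 0.00627), and nup82 nup136 held 2 counts in 1 library and 0 in the other (adjusted p = 0.0332). The triple mutant was at least 7-fold higher than nup50c nup136 (adjusted p = 0.00596, and 0.0517 without nup50c nup136 replicate 2). These are low counts, between 12 and 24 in the WT libraries, and nup50c replicate 1 also held 0. Without nup50c nup136 replicate 2 the adjusted p for the fall rose to 0.0573, and for nup82 nup136 it reached 0.188 with single libraries left out.

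The triple mutant was next compared with each genotype that carries nup136 and fewer mutations. Against nup136, 13 members were higher and 6 lower (51.4%, against 37.7% of all genes tested, 18.5% higher and 19.3% lower). Against nup50c nup136, 10 were higher and 3 lower (35.1%, against 22% of all genes, 10.1% higher and 11.9% lower). Against nup82 nup136, 16 were higher and 2 lower (48.6%, against 29.8% of all genes), where 14.9% of all genes were higher and 14.9% lower. CRK13 was higher in all 3 comparisons, by 3.15 ± 0.30, 1.84 ± 0.28 and 1.56 ± 0.27, and CRK22 by 1.47 ± 0.12, 0.55 ± 0.11 and 0.89 ± 0.11. CRK10 was lower in all 3, by -1.36 ± 0.11, -0.67 ± 0.12 and -0.61 ± 0.12. The 3 comparisons share the triple mutant libraries, and without triple mutant replicate 1 the counts against nup136 and nup82 nup136 dropped from 19 to 12 and from 18 to 9.

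CRK11, CRK14, CRK19 and CRK21, neighbours of these genes in the long array, were higher in the triple mutant than in nup136 or nup82 nup136. CRK14, for example, was at 6.34 and 6.79 CPM in the triple mutant, 2.69 and 2.93 CPM in nup136 and 1.34 and 3.11 CPM in nup82 nup136. Its WT libraries held 3.57 and 4.07 CPM, and the difference between the triple mutant and WT did not pass the test. The call of CRK14 against nup136 was lost without any 1 of the 4 libraries (adjusted p from 0.0889 to 0.162), and against nup82 nup136 without nup82 nup136 replicate 1 or triple mutant replicate 2 (up to 0.0936). Against nup136, CRK19 lost its call without nup136 replicate 2 or triple mutant replicate 1 (up to 0.437), and CRK11 without replicate 2 of either genotype (up to 0.0803). Against nup82 nup136, CRK19 lost it without replicate 1 of either genotype (up to 0.0735) and CRK21 without triple mutant replicate 1 (0.0729). CRK42 was at 9.05 and 8.86 CPM in the triple mutant and at 15.4 and 13.1 CPM in nup136, against which it was lower (-0.67 ± 0.15, adjusted p = 0.00107).

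The effect of nup136 was also measured within each of its 4 backgrounds, comparisons that share no library. In nup50c, 4 members were higher and 11 lower with nup136 (40.5%, against 27% of all genes tested, 12.9% higher and 14.1% lower). In nup82, 2 were higher and 12 lower (37.8%, against 21.5%, 8.92% higher and 12.6% lower), and in nup50c nup82, 10 were higher and 8 lower (48.6%, against 46.3%, 22.3% higher and 24% lower, a share near that of all genes). CRK4, CRK10 and CRK25 fell in all 4 backgrounds, and no member rose in all 4. In sign alone, 5 members were positive in every background, 11 in none, and the other 21 in some. CRK31 and CRK39, among the 11, were at 0.152 and 0.455 CPM in WT. The shares of all genes with the same call or sign in all 4 backgrounds are not given here. No conclusion about the family is therefore drawn from these counts. Without nup50c replicate 2 the count of 15 in nup50c dropped to 8, and the count of 14 in nup82 was 9 without nup82 replicate 1, nup82 replicate 2 or nup82 nup136 replicate 2.

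CRK25 changed by nearly the same amount in each background, -0.86 ± 0.16 in WT, -1.09 ± 0.16 in nup50c, -1.04 ± 0.16 in nup82 and -1.21 ± 0.16 in nup50c nup82. CRK10 did not: its changes were -0.43 ± 0.11, -1.42 ± 0.11, -1.34 ± 0.11 and -1.60 ± 0.11. CRK41 was at 0.16 ± 0.19, -1.91 ± 0.20, -1.06 ± 0.20 and -2.23 ± 0.21. A direct test of the difference from the effect in WT, added after the data were seen, was passed by CRK10 and CRK41 in all 3 other backgrounds (adjusted p between 6.59e-07 and 0.00492), and that of CRK41 in nup82 was lost when single libraries were left out. In nup50c, 6 members passed it, 2 with a positive and 4 with a negative difference (16.2%, against 5.17% of all genes tested, 2.45% positive and 2.72% negative). In nup82, 5 passed, 2 positive and 3 negative (13.5%, against 8.77%, 3.44% positive and 5.33% negative). In nup50c nup82, 7 passed, 3 positive and 4 negative (18.9%, against 24.2%, 11.5% positive and 12.7% negative). The 3 tests share the WT and nup136 libraries. Without WT replicate 2 the count in nup50c was 2, and without nup82 replicate 1 the count in nup82 was 3.

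**Figure D4:**
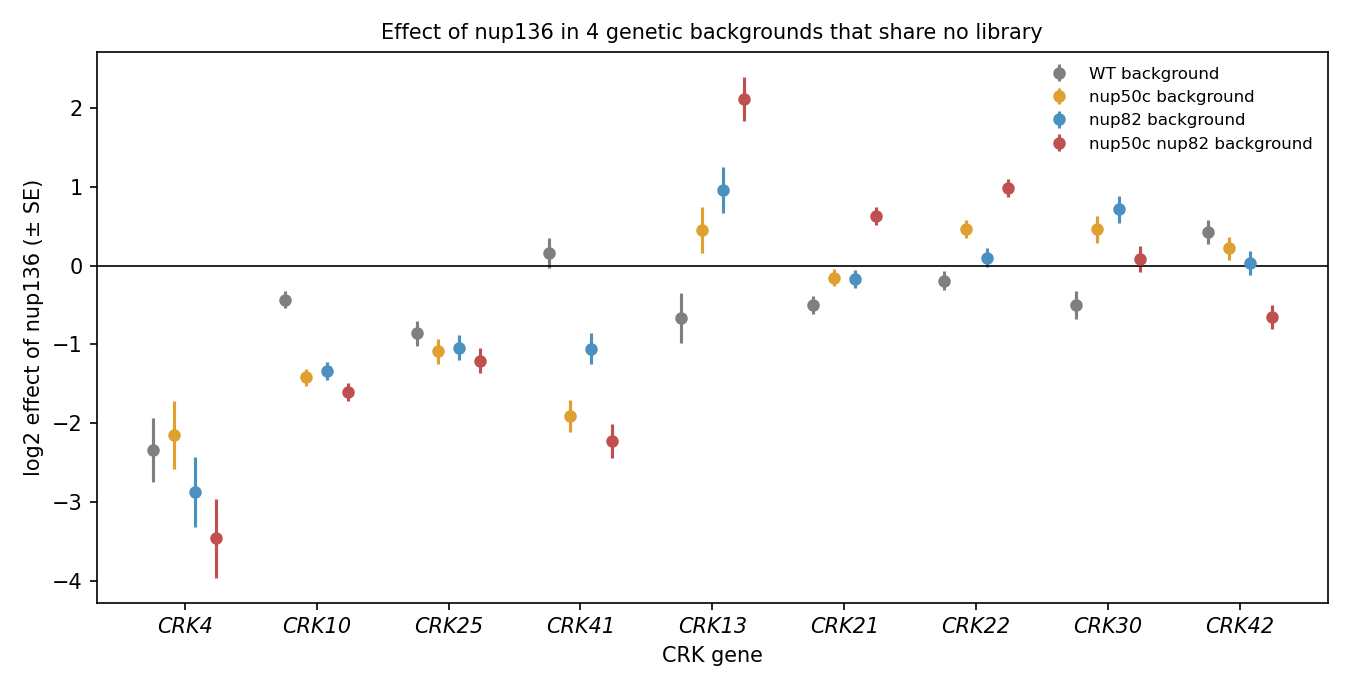
Log2 effect of nup136 with its SE (vertical axis) for 9 CRK genes (horizontal axis) in 4 genetic backgrounds that share no library. CRK4 and CRK25 were below 0 in each background, CRK10 fell further in the 3 other backgrounds than in WT, CRK41 fell in those 3 and not in WT, and CRK21 and CRK22 were positive and called in the nup50c nup82 background.

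Averaged over the 4 backgrounds, nup136 raised 9 members (24.3%) and lowered 14 (37.8%), 62.2% in all. Over all genes tested the share was 52.6%, with 25.7% higher and 26.9% lower, so the raised share was near that of all genes. For some members the average covers unlike effects. The effect on CRK13 was -0.67 in WT and 2.12 in nup50c nup82, and that on CRK41 was 0.16 in WT and -1.91 in nup50c. CRK10 (-1.20 ± 0.06), CRK25 (-1.05 ± 0.08), CRK41 (-1.26 ± 0.10) and CRK4 (-2.71 ± 0.22) had the smallest adjusted p, from 2.68e-15 to 2.22e-09. CRK3, CRK11, CRK19, CRK26, CRK27, CRK28, CRK31, CRK34, CRK39 and CRK40 were also lower, and CRK5, CRK8, CRK13, CRK15, CRK18, CRK22, CRK24, CRK29 and CRK36 were higher. The call of CRK8 was lost in 14 of the 16 fits that left out 1 library (adjusted p up to 0.197). CRK5 lost its call without nup136 replicate 2 (adjusted p = 0.0581), CRK31 without nup50c nup82 replicate 1 (0.0613) and CRK39 without nup50c replicate 2 (1).

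Across the 7 comparisons with WT, 31 of the 37 tested members were called in at least 1 (83.8%, against 55.1% of all genes tested), 18 of them higher (48.6%, against 28.1%) and 14 lower (37.8%, against 29.2%). Members near 0 counts in WT are among the 18. CRK21 was the only member in both, lower in nup136 (-0.51 ± 0.11, adjusted p = 0.00322) and higher in the triple mutant (0.48 ± 0.11, adjusted p = 0.00104). Its libraries held 21.5 and 26.2 CPM in WT, 17.7 and 15.8 CPM in nup136 and 34.7 and 31.5 CPM in the triple mutant, without overlap. Its call in nup136 was lost without WT replicate 2 or nup136 replicate 2, where the adjusted p was at most 0.103. CRK14, CRK16, CRK23, CRK31, CRK32 and CRK42 were never called against WT.

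Other genes of the same family and of pathways in which CRKs act were examined in the triple mutant against WT, where 47.6% of all genes tested were called, 23.3% higher and 24.3% lower. Of 8 genes described as cysteine-rich receptor-like kinases under another name, 6 were tested. ARCK1 (2.43 ± 0.26, adjusted p = 3.09e-08) and EMB1290 (1.11 ± 0.13, adjusted p = 1.67e-07), which lies within the long array, rose, and AT1G70740 fell (-0.50 ± 0.13, adjusted p = 0.00202). These 3 were named after their values were seen. Of the cysteine-rich repeat secretory proteins, which share the extracellular domain and lack a kinase, 9 of 49 were tested, and AT5G48540 alone rose (0.51 ± 0.19, adjusted p = 0.0291). Of the plasmodesmata-located proteins, which carry the same domain, 2 of 8 rose and 4 fell, among them PDLP1 (1.80 ± 0.30) and PDLP5 (-1.14 ± 0.21).

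Of 20 immune receptors and their kinases, 8 rose and 6 fell (70%, against 47.6% of all genes tested, 23.3% higher and 24.3% lower), and their median was 0.03. BIK1, the cytoplasmic kinase downstream of FLS2, rose by 1.51 ± 0.10 (adjusted p = 4.78e-12) and FLS2 itself by 0.98 ± 0.13 (adjusted p = 4.71e-07). The MAP kinase gene MPK3 fell by 1.27 ± 0.09 on the log2 scale (adjusted p = 4.78e-11) and CPK28, a negative regulator of BIK1, by 0.90 ± 0.11 (adjusted p = 9.98e-07). Of 9 WRKY factors, 4 rose and 2 fell (66.7%), with WRKY60 at 2.13 ± 0.18, WRKY75 at 2.17 ± 0.26 and WRKY29 at 1.17 ± 0.18 among the risers and WRKY70 at -1.69 ± 0.21. Of 15 genes of the salicylic acid pathway, 4 rose and 3 fell (46.7%, a share near that of all genes), including FMO1 (3.35 ± 0.73), PBS3 (2.72 ± 0.41) and SAG101 (0.92 ± 0.11), which rose, and EDS1 (-0.42 ± 0.09), which fell. Of the 4 wall-associated kinases tested (WAK5 was not), WAK1 and WAK3 rose (50%, also near that of all genes), by 2.07 ± 0.32 and 6.67 ± 1.32. The largest log2 fold change among these 4 genes was also 3.51 to 5.45 in the other mutant genotypes against WT. The WT level of WAK3 is not given here and its SE is wide, so the size of its rise is not read further.

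Organ markers were measured in the same libraries, and in the triple mutant 47.6% of all genes tested were called, 24.3% lower and 23.3% higher. The summed level of the 12 leaf photosynthesis markers was 48093 and 50449 CPM in WT and 31489 and 31700 CPM in the triple mutant, with 10 of 12 lower (83.3%) and none higher. The 16 root markers summed to 3020 and 3083 CPM in WT and to 2646 and 2706 CPM in the triple mutant. In the other genotypes with nup136 the sum was 1776 to 2253 CPM. In the triple mutant 9 root markers were lower and 1 higher (62.5%). Their median log2 fold change against WT was -1.02 in the triple mutant. It was -0.34 in nup136, -0.63 in nup50c nup136 and -0.59 in nup82 nup136, so the sums and the medians order these genotypes differently. Neither list had a member at 0. Their part in the changes of the CRK genes was not tested.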

How the data were processed

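Strand-specific mRNA sequencing of 16 seedling libraries was analysed from the deposited table of raw gene counts. The authors' counts came from HISAT2 2.0.4 and HTSeq 0.6.1p1 on TAIR10, per the submitters' processing notes; how strand and multiply aligned reads were handled is not given in the sources used here. The deposited FPKM values of the authors were used only to compare levels between genes. Counts were filtered with filterByExpr (minimum count 10), scaled by TMM and fitted in edgeR 4.0.16 (R 4.3.3, limma 3.58.1) by the robust quasi-likelihood method, in 1 fit of all 8 genotypes with 8 residual degrees of freedom. Benjamini-Hochberg adjustment ran over the 22427 genes tested, and SE is that of the fitted log2 fold change. All adjusted p in the text come from this test unless DESeq2 1.42.0, an alternative, is named. The script was tested on simulated counts. Of 17 comparisons, 14 were planned and 3 differences between nup136 effects were added after the data were seen. The members and the gene lists were chosen with earlier results of these data known. Members given by library were the 12 with the smallest adjusted p in the triple mutant against WT and those called in nup50c, nup82 or nup50c nup82; CRK14, CRK21, CRK39 and CRK42 were added after their values were seen. Other lists name at most the 4 genes with the smallest adjusted p. Depth was 37923632 to 46194172 counts per library, and floors of 3 counts cover counting error only. Alternatives were the DESeq2 test, size factors of DESeq2, scaling by library totals alone, no filter on low counts, a minimum log2 change of 1, fits of only the genotypes compared, the replicate number as a block, and leaving out each library in turn.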

Additional observations from a re-analysis of the deposited data

Results flagged for a closer look

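For 9 CRK genes the effect of nup136 differed between genetic backgrounds by a direct test of the difference (edgeR quasi-likelihood, adjusted over all genes tested). The values are log2 differences, the effect of nup136 in the named background minus its effect in WT. The 3 sets share the WT and nup136 libraries. The share of members that passed was 16.2% in nup50c, 13.5% in nup82 and 18.9% in nup50c nup82. Over all genes tested it was 5.17%, 8.77% and 24.2%, so in nup50c nup82 the members were below all genes. The share of all genes passing in any of these backgrounds is not given here. The count of 9 is therefore not read as a result about the family.

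In nup50c the difference was -3.82 for CRK6, -4.99 for CRK7, -0.99 for CRK10, 0.65 for CRK22, 0.96 for CRK30 and -2.07 for CRK41, with adjusted p from 2.14e-05 (CRK41) to 0.0344 (CRK7). In nup82 it was -5.84 for CRK7, -0.91 for CRK10, 1.63 for CRK13, 1.22 for CRK30 and -1.22 for CRK41, with adjusted p from 3.29e-04 (CRK10) to 0.0169 (CRK13). In nup50c nup82 it was -3.29 for CRK6, -1.17 for CRK10, 2.78 for CRK13, 1.14 for CRK21, 1.18 for CRK22, -2.39 for CRK41 and -1.08 for CRK42, with adjusted p from 6.59e-07 (CRK41) to 0.0202 (CRK6).

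Calls lost with some single library left out were those of CRK6, CRK7, CRK22 and CRK30 in nup50c, of CRK7, CRK13 and CRK41 in nup82, and of CRK6 in nup50c nup82. CRK6 and CRK7 were near 0 counts in WT, where a fitted effect depends on few reads.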

How the results depend on the processing

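Numbers of called CRK genes kept within 1.5 times of the reported count with size factors of DESeq2, with scaling by library totals alone and with the replicate block. Requiring a log2 change of at least 1 left 5 members in nup136, 7 in nup50c nup136 and 8 in nup82 nup136 against WT, 7 in nup50c nup136 against nup50c, 6 in nup82 nup136 against nup82, and 9 for the average nup136 effect. The triple mutant then had 10 against nup136, 5 against nup50c nup136, 8 against nup82 nup136 and 10 against nup50c nup82, and the difference of nup136 effects in nup50c had 3. For nup50c, 2 members were called without the filter on low counts and 2 by DESeq2; for nup82, 1 was called in each of these and 1 when only the genotypes compared were fitted.

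With 1 library left out, counts against WT ranged from 20 to 22 in the triple mutant, 12 to 15 in nup50c nup136, 7 to 12 in nup82 nup136, 3 to 10 in nup136, 0 to 1 in nup50c nup82, 0 to 1 in nup50c and 0 to 0 in nup82. They ranged from 8 to 12 for nup50c nup136 against nup50c, 9 to 11 for nup82 nup136 against nup82, and 21 to 25 for the average nup136 effect. For the triple mutant they ranged from 12 to 17 against nup136, 9 to 10 against nup50c nup136, 9 to 14 against nup82 nup136 and 14 to 15 against nup50c nup82. The differences of nup136 effects gave 2 to 7 in nup50c, 3 to 6 in nup82 and 6 to 9 in nup50c nup82. The cause of these shifts was not tested.

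Replicate numbers did not pair the samples: over 28 pairs of genotypes, same-numbered libraries correlated between -0.115 and 0.119 in their deviations, with 2 over 0.1. With the replicate block the triple mutant had 25 called members against WT, nup136 10, nup50c nup136 17, nup82 nup136 18 and nup50c nup82 3. Of 2432 single values recomputed, 303 lost their call and 0 changed sign. Called members that fell under the low-count filter in fits of only the genotypes compared are not among these values. A log2 fold change of 0 was not counted as a change of sign. CRK39 in nup50c nup136 against nup50c reached 0 with a single library left out. Members near 0 counts are limited by depth, and 2 libraries per genotype limit every comparison.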
